A study of Homo sapiens with 36 samples.

Results

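Control clone 10 of the small-cell lung cancer line H446 was compared with the other control clones of the study, clones 3 and 13, in libraries treated with DMSO. The members were the 3 libraries of clone 10 and the 6 libraries of clones 3 and 13, which makes 9 of the 36 libraries of the series. H446 is an established human line of the SCLC-N subtype, which expresses the neural transcription factor NEUROD1. Each control clone carried a non-targeting guide RNA, is labelled wild type and was grown out as 1 clone. The clones were treated for 24 h with DMSO or with 1 µM JQ1, a small molecule that keeps BET proteins from binding acetylated histones, and 3 libraries labelled as biological replicates were made per clone and treatment. The other libraries of the series came from 3 H446 clones with a NEUROD1 knockout (clones 12, 15 and 2-1). Since only 1 clone stands on each side of a difference, the p-values measure the spread between libraries of a clone and not the spread between clones.

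A clone is the progeny of a single cell, and its cells share the DNA copy number, the mutations and the inherited chromatin state of that founder. A cancer line is a mixture of such lineages, so clones that received the same inert guide can differ in which genes are on or off. Small-cell lung cancer cells are neuroendocrine: they hold hormone granules and synaptic vesicle proteins and are driven by neural transcription factors such as NEUROD1. Cancer-testis antigens, such as the SSX and MAGE families, are normally made in germ cells, are kept silent elsewhere by DNA methylation, and appear in tumours in patterns that differ from cell to cell.

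Summed over the 19014 genes with deposited counts, the 9 DMSO libraries held 13743706 to 17608539 recovered reads, with a median of 15892252. Clone 10 spanned that whole range and so overlapped both other clones in depth. Clone 3 (14639667 to 15313695 reads) lay below clone 13 (15892252 to 17060705). NEUROD1, the gene targeted in the other clones, was present in every control library (5134 to 6523 normalized counts with DMSO) and stood at means of 0.360, 0 and 5.25 in the 3 knockout clones. Replicate libraries differed by more than counting noise in every group, and most so between replicates 1 and 2 of clone 13 with JQ1 (chi-square per degree of freedom 14.01, against 2.19 to 8.22 for the other pairs).

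Of 15284 genes tested, clone 10 lay outside both other clones at 1713, or 11.2%. At 741 genes (4.85%) clone 10 was higher than both and at 972 (6.36%) it was lower. A gene was called only where both differences had 1 sign, the larger of the 2 limma p-values passed 0.05 after Benjamini-Hochberg adjustment, and the 3 clone 10 libraries lay outside the range of the 6 others. Most of these differences were small: 181 genes (1.18%) were at least 2-fold away from the nearer clone, 72 of them higher (0.471%) and 109 lower (0.713%). By the same rule clone 3 lay outside both others at 4404 genes (28.8%; 4.65% at least 2-fold) and clone 13 at 4241 (27.7%; 3.34%), counts that share libraries with the count of clone 10 and are set beside it without a test. All differences are on the log2(normalized count + 1) scale, and the median over all genes tested, clone 10 minus the mean of both others, was 0.01. With the clone as the unit, 1 against 2, limma called 0 genes, and 196 had an unadjusted p under 0.05. edgeR on whole reads of the libraries called 1799 genes and DESeq2 1613. The count was 727 from the FPKM table and 615 with the spread taken from all 36 libraries.

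**Figure D1:**
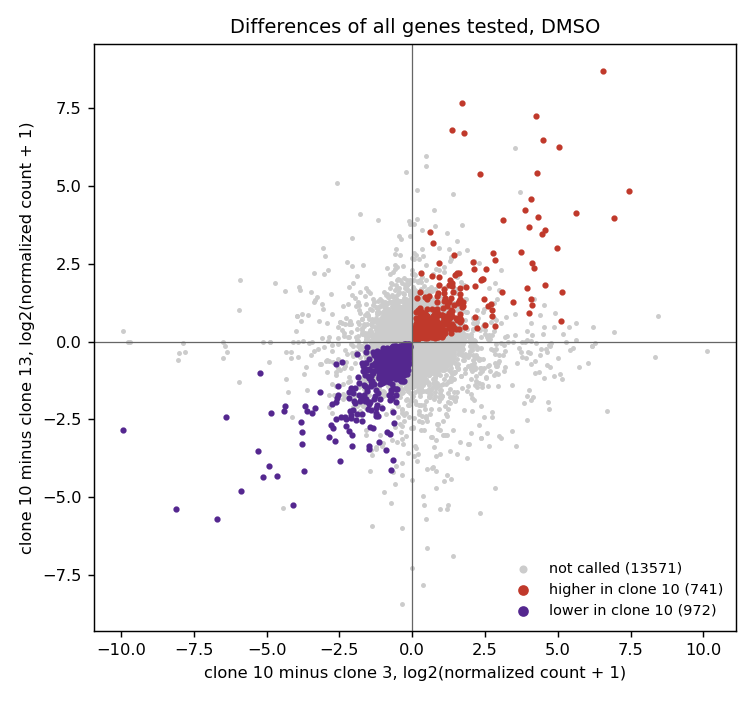
Each point is a gene, placed by its difference between clone 10 and clone 3 (x axis) and between clone 10 and clone 13 (y axis), both on the log2(normalized count + 1) scale, with DMSO. The 741 genes called higher lie in the upper right and the 972 called lower in the lower left, while most grey points far from the centre lie near 1 of the axes, where clone 10 differs from only 1 clone.

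The genes highest in clone 10 relative to both clones included SSX cancer-testis genes on the X chromosome. SSX proteins are nuclear repressors best known from their fusion to SS18 in synovial sarcoma. SSX2 and SSX2B are near-identical copies, as are SSX4 and SSX4B, so reads cannot be assigned firmly within a pair and each pair was summed. The SSX2 pair stood at 1331, 1284 and 1336 normalized counts in clone 10. It stood at 50.9, 43.6 and 40.3 in clone 3 and at 6.42, 1.93 and 5.00 in clone 13. The SSX4 pair stood at 219, 206 and 196 in clone 10, at 27.5, 25.5 and 23.3 in clone 3, and at 2.75, 3.87 and 0 in clone 13. For both pairs the 3 clones did not overlap, and the order was clone 10, clone 3, clone 13.

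The sequences upstream of these genes are shown because the members moved together: the bases before each RefSeq start (GRCh38.p14), trimmed where a GENCODE 29 gene model begins, read 5′ to 3′ on the gene's strand, with each CG dinucleotide, the site of DNA methylation, in capitals.
SSX2, chrX:52707190-52707428, minus strand: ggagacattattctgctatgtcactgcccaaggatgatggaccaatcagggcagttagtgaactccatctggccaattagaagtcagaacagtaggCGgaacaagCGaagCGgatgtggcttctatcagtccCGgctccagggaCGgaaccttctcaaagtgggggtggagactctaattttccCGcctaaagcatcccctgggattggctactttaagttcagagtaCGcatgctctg
SSX4, chrX:48383289-48383515, plus strand: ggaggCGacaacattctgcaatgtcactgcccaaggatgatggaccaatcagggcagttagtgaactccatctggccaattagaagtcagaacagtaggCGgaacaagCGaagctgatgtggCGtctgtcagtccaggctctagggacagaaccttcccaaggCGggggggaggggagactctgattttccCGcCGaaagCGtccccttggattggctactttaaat
SSX1, chrX:48255142-48255316, plus strand: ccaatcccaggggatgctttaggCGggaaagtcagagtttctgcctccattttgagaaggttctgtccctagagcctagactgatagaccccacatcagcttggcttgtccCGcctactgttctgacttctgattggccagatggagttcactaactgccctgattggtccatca
MAGEB2, chrX:30215313-30215559, plus strand: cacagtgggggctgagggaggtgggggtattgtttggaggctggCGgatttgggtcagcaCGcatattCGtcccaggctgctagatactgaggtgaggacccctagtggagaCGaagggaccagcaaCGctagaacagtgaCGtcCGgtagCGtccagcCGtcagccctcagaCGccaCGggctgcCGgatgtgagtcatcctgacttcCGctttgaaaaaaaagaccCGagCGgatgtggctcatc
Of the RefSeq starts of SSX2, the one whose window matched that of SSX2B was kept. Their identity over all 250 bases before the start therefore follows from that choice. SSX2 and SSX4 were identical at 82.5% of aligned positions and shared an unbroken run of 94 bases. The SSX1 window aligned with neither in the same direction (longest shared run 9 bases with SSX2) but held a run of 43 bases of both on its other strand. Whether the SSX1 window was read in the right direction could not be checked. CG pairs numbered 2.93 per 100 bases before SSX2, 3.52 before SSX4, 1.14 before SSX1 and 6.07 before MAGEB2. Over 35116 such windows of 250 bases in RefSeq the median was 4.40, and 43.7%, 45.9%, 22.9% and 59.0% of windows had no more than these 4 genes in that order. DNA methylation was not measured in these libraries.

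SSX1 stood at 404, 389 and 417 normalized counts in clone 10, at 122, 134 and 115 in clone 3, and at 0, 0 and 6.99 in clone 13. Clone 10 was above both, but the adjusted p was 0.0496, and the call was lost in 19 of 29 alternative analyses, among them each fit without 1 clone 10 or clone 3 library. SSX6, a neighbouring copy, was chosen after its values were seen and differed: clones 10 and 3 stood at 96.7 ± 12.0 and 85.1 ± 5.8 (SD, n = 3 libraries), and clone 13 at 5.45 ± 1.16, so clone 10 was outside clone 13 only. A sum was taken over SSX1, SSX2, SSX2B, SSX4 and SSX4B, a set of 5 that was chosen after values were seen and leaves out SSX6. It was 1927 ± 41.2 in clone 10, 194 ± 13.7 in clone 3 and 8.99 ± 3.10 in clone 13. In the knockout clones the sum was 139 ± 14.2 (clone 12), 623 ± 30.4 (clone 15) and 59.0 ± 5.53 (clone 2-1), so clone 10 had the highest sum of the 6 clones.

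MAGEB2, a MAGE family member encoded at some distance on the same chromosome (GRCh38 chrX:30215560-30220089), followed the same order. Its normalized counts were 67.5, 92.7 and 68.7 in clone 10, 1.02, 2.13 and 1.06 in clone 3, and 0 in each clone 13 library. Against clone 3 the difference was 5.02 ± 0.52 (log2, SE; adjusted p = 2.7e-06). Clone 13 held no read of it, so clone 10 was at least 79.6-fold higher over the floor of 3 reads. The other cancer-testis genes did not move with these. Of 28 tested members of that list, 4 were higher (14.3%, beside 4.85% of all genes), SSX1, SSX2, SSX4 and MAGEB2. Another 4 were lower (14.3%, beside 6.36%), MAGEA2, MAGEC1, MAGEC2 and MAGEA4, and the median difference was 0.05 beside 0.01 over all genes. PAGE1, chosen after its values were seen, stood at 1205 ± 71.4 in clone 10 and 1278 ± 62.1 in clone 3 against 303 ± 25.8 in clone 13.

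INPP4B, a phosphatase that removes a phosphate from the lipid PI(3,4)P2, had the largest difference from the nearer clone among the named higher genes outside the SSX and MAGE families. Clone 10 held 1633, 1628 and 1663 normalized counts, clone 3 7.13, 6.38 and 12.7, and clone 13 54.1, 46.4 and 69.9. The differences were 7.45 and 4.85 ± 0.21 (log2, SE; adjusted p = 8.1e-11), and the 3 clones did not overlap. The knockout clones held means of 1594, 479 and 283, so the level of clone 10 was matched by knockout clone 12 and the low levels were those of clones 3 and 13.

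PREX2, an exchange factor that activates the GTPase RAC1, stood at 187, 144 and 136 normalized counts in clone 10. It had 1.02, 0 and 0 in clone 3 and 3.67, 10.6 and 17.0 in clone 13. With 1 read in all of clone 3, the ratio to that clone was 452, with a 95% interval of 80.7 to 17889 for counting error only. BRINP1, a neural protein, was among the most abundant of the strongly different genes, at 4261, 4107 and 4175 in clone 10, 771, 812 and 805 in clone 3 and 1016, 1086 and 1030 in clone 13. The differences were 2.39 and 2.00 ± 0.04 (adjusted p = 6.0e-15). FAM78B stood at 589 ± 32.7 in clone 10, 109 ± 20.6 in clone 3 and 145 ± 9.91 in clone 13 (adjusted p = 6.4e-09).

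SLC15A3, a lysosomal transporter of histidine and small peptides, stood at 547 ± 49.3 in clone 10, 105 ± 2.75 in clone 3 and 139 ± 16 in clone 13. SLC38A5, an amino acid transporter on the X chromosome, stood at 367 ± 12.0, 108 ± 5.4 and 2.56 ± 0.56 in the same order of clones. EFHC2, an EF-hand protein also on the X chromosome, stood at 102 ± 11.8, 7.01 ± 3.14 and 13.1 ± 1.3. For each of the 3 the libraries of clone 10 lay above all others. GOLGA8I, at 373 ± 24.2 against 82.7 ± 7.58 and 108 ± 9.20, is 1 of many near-identical golgin copies, and its reads may belong to others. The transcripts AC008865.1 and AL626787.1, completed the 15 highest genes, with means of 51.7 and 67.2 in clone 10.

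**Figure D2:**
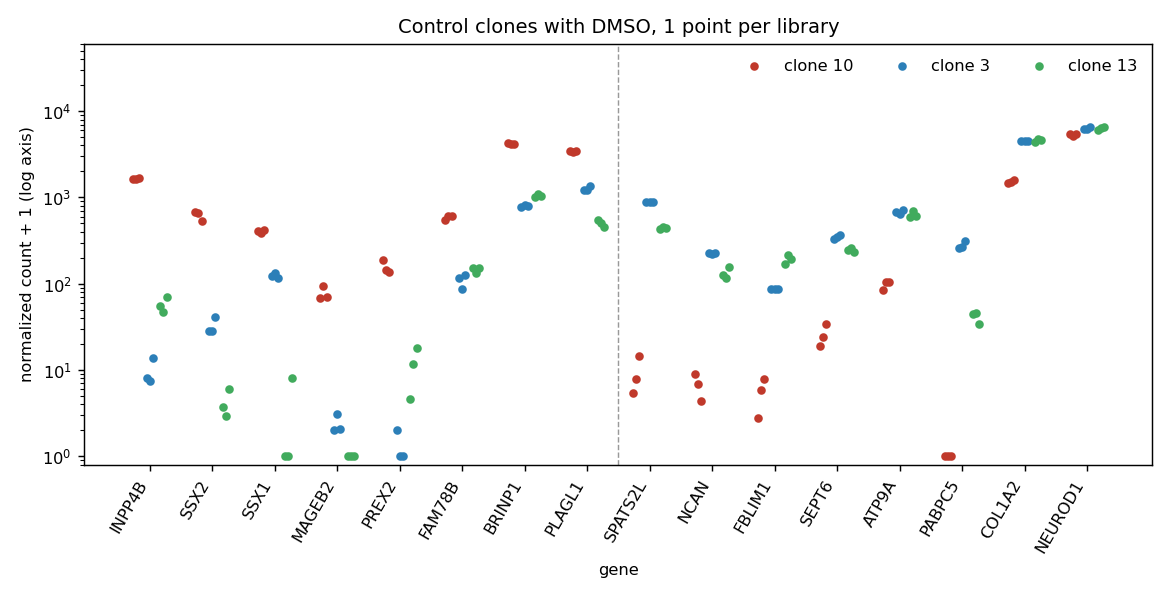
Normalized counts plus 1 on a log axis for 16 genes in the 9 DMSO libraries, 1 point per library and colours for the 3 clones; genes higher in clone 10 stand left of the dashed line and genes lower right of it. The points of clone 10 lie apart from those of both other clones for every gene shown, widely for SSX2 and by a narrow margin for NEUROD1.

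Among the genes lowest in clone 10, several were at or near 0 there and clearly present in both other clones. SPATS2L stood at 4.44, 6.83 and 13.7 normalized counts in clone 10 against 878, 881 and 890 in clone 3 and 431, 454 and 445 in clone 13. The difference from the nearer clone was −5.70 ± 0.23 (log2, SE; adjusted p = 4.5e-11). NCAN, the brain matrix proteoglycan neurocan, stood at 8, 5.86 and 3.43 in clone 10, 227, 218 and 227 in clone 3 and 126, 116 and 157 in clone 13. FBLIM1, a filamin-binding adaptor at cell adhesions, stood at 1.78, 4.88 and 6.87 in clone 10, 86.6, 85.1 and 85.9 in clone 3 and 169, 214 and 192 in clone 13. The libraries of clone 10 lay below all others for each of the 3 genes.

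The low state was shared with knockout clones for some of these genes and not for others. SPATS2L had means of 22.1, 2.97 and 7.28 in knockout clones 12, 15 and 2-1, near the level of clone 10. NCAN stood at 5.34 and 0.338 in knockout clones 12 and 15 but at 442 in clone 2-1. FBLIM1 stood at 206 to 901 in all 3. SPHKAP, an anchor for protein kinase A, held 2.36 ± 1.26 in clone 10, 96.9 ± 12.4 in clone 3 and 50.9 ± 11.9 in clone 13, and no read in any knockout clone with DMSO.

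Genes with no read in clone 10 were added after their values were seen. PABPC5, a poly(A)-binding protein gene on the X chromosome, had 0 reads in the 3 clone 10 libraries. It stood at 256, 263 and 313 normalized counts in clone 3 and at 44.0, 44.5 and 33.0 in clone 13. Clone 10 was therefore at least 279-fold lower than clone 3 and at least 40.9-fold lower than clone 13, each against a floor of 3 reads over the clone. KCNF1, a modifying subunit of voltage-gated potassium channels, also had 0 reads, at least 58.0-fold below clone 3 and at least 27.4-fold below clone 13. WBSCR17, a glycosyltransferase-like gene, had 2 reads in clone 10 and 28 in clone 13 against 3926 in clone 3, so it was near off in both clones 10 and 13. CHRM3, a muscarinic acetylcholine receptor, had 2 reads in clone 10, 100 in clone 3 and 87 in clone 13, ratios of 52.8 (95% interval 14.2 to 442) and 42.1 (11.3 to 353) for counting error only.

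Others were reduced without being off. ATP9A, a phospholipid flippase of endosomes, stood at 82.6, 104 and 104 in clone 10, 685, 644 and 714 in clone 3 and 586, 696 and 608 in clone 13. Its differences were −2.80 and −2.69 ± 0.10 (adjusted p = 6.7e-12). SEPT6, a septin of the cytoskeleton, stood at 24.8 ± 7.81 against 348 ± 17.0 and 245 ± 13.7. The remaining genes of the 15 lowest were LRMP, PPP1R17, EPB41L4A, SYTL5, AFAP1L1, NPNT, BDKRB2, DPF3 and the forkhead factor FOXF2, with means of 4.22 to 49.2 in clone 10 and 58.1 to 275 in the others.

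Several genes of the extracellular matrix were lower in clone 10. Of 41 tested mesenchymal and matrix genes 7 were lower (17.1%, beside 6.36% of all genes) and 3 higher (7.32%, beside 4.85%), and the median difference was −0.28. COL1A2, a chain of type I collagen, stood at 1461, 1499 and 1607 in clone 10 against 4524, 4512 and 4525 in clone 3 and 4413, 4726 and 4645 in clone 13. The differences were −1.57 and −1.59 ± 0.04 (adjusted p = 5.4e-14). TIMP2, an inhibitor of matrix metalloproteinases, stood at 1482 ± 28.7 against 3008 ± 153 and 3429 ± 78.0. COL5A2, a chain of type V collagen, stood at 147 ± 27.5 in clone 10 and 293 ± 2.78 in clone 13, both far below the 5437 ± 170 of clone 3. BGN, the proteoglycan biglycan, went the other way, at 236 ± 11.8 against 80.8 ± 12.2 and 51.3 ± 13.1. Fewer cells of a state and less RNA per cell cannot be told apart in these bulk libraries.

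Markers of fibroblasts and stroma were called in both directions. Of the 15 markers 14 were in the table, and none of these was at 0 in all 9 libraries. Of the 12 tested, 2 were lower (16.7%, beside 6.36% of all genes) and 1 higher (8.33%, beside 4.85%). The median difference of the tested markers was 0.13, opposite in sign to their sum. Their summed level was 5398 to 5738 in clone 10, 11611 to 11928 in clone 3 and 9641 to 10237 in clone 13, with COL1A2, also a member of the matrix list, making up 39.0%. ACTA2, smooth muscle actin, stood at 231 ± 24.8 against 597 ± 18.6 and 558 ± 34.9, while THY1, a surface protein of fibroblasts and neurons, was higher at 2846 ± 127 against 2091 ± 45.9 and 1967 ± 68.1. The part of these markers in the result was not tested. Markers of blood and immune cells summed to at most 99.6 normalized counts in any of the 9 libraries, and those of airway cells to at most 79.0. The endothelial sum was 99.4% CDH5 and the alveolar sum 88.0% ABCA3, and neither gene was called.

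Cell adhesion genes of the cadherin family, apart from the clustered protocadherins, were called at 9 of 27, 6 lower (22.2%, beside 6.36% of all genes) and 3 higher (11.1%, beside 4.85%). DCHS1, an atypical cadherin of planar cell polarity, was lower in clone 10, at 528, 521 and 511 against means of 1480 ± 47.6 and 2001 ± 140 in clones 3 and 13. CDH11, a mesenchymal cadherin, was lower at 502 against 811 and 743. CDH23, a cadherin known from hair cells, was higher, at 156, 137 and 177 against 3.48 ± 0.51 in clone 3 and 51.7 ± 5.93 in clone 13. CDH7 was higher at 1371, 1412 and 1365 against 628 ± 22.4 and 1069 ± 45.2.

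NEUROD1 itself was lower in clone 10 by a small margin. Its normalized counts were 5423, 5134 and 5426 in clone 10, 6209, 6278 and 6523 in clone 3, and 6056, 6417 and 6516 in clone 13. Clone 10 lay below all 6 other libraries, while clones 3 and 13 overlapped, and the differences were −0.25 and −0.25 ± 0.03 (log2, SE; adjusted p = 5.9e-05). NEUROD4, a related factor, was lower too, at 1280 ± 58.0 against 1624 ± 48.1 and 1561 ± 123 (adjusted p = 0.0013). Of 32 neural transcription factors tested, 2 were lower (6.25%, beside 6.36% of all genes) and 2 higher (6.25%, beside 4.85%). The higher ones were PROX1 and PAX6, regulators of neural and endocrine development.

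Neuroendocrine score genes were called in the higher direction only. Of 22 tested genes of a neuroendocrine score 5 were higher (22.7%, beside 4.85% of all genes) and 0 lower (beside 6.36%), and the median difference was 0.10 beside 0.01 over all genes. RTN1, a reticulon of neurons and endocrine cells, stood at 1318, 1291 and 1293 in clone 10, 569, 551 and 620 in clone 3 and 864, 897 and 864 in clone 13. SYN1, SYT4 and BEX1, a synapsin, a synaptotagmin and a small adaptor protein, were higher with differences of 0.34, 0.22 and 0.20 from the nearer clone. INSM1, a zinc finger factor that marks neuroendocrine cells, stood at 3208 ± 44.6 against 2194 ± 123 and 3093 ± 127, and was not called. CHGA and SYP, the classical markers chromogranin A and synaptophysin, lay between the other clones. Of 11 tested genes of the opposite, non-neuroendocrine score, 1 was higher (9.09%, beside 4.85%) and 0 lower (beside 6.36%), with a median of −0.19.

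Secretory and synaptic genes were called mainly in the higher direction. Of 13 granins and prohormone genes 4 were higher (30.8%, beside 4.85% of all genes) and 0 lower (beside 6.36%), with a median difference of 0.18. PCSK2, a prohormone convertase, stood at 881, 891 and 939 in clone 10 against 633 ± 23.2 and 352 ± 24.5, and VGF, a secreted neuropeptide precursor, at 672, 607 and 609 against 373 ± 20.3 and 463 ± 19.4. ADCYAP1, which encodes the neuropeptide PACAP, and the granin SCG3 were higher with differences of 0.44 and 0.20 from the nearer clone. Of 41 synaptic vesicle and exocytosis genes 6 were higher (14.6%) and 2 lower (4.88%, near the 6.36% of all genes). SYT7, a calcium sensor of exocytosis, stood at 918 ± 29.9 against 313 ± 12.6 and 566 ± 64.3. CPLX2, a complexin that clamps vesicle fusion, stood at 3379 ± 62.3 against 1786 ± 63.7 and 2259 ± 110. UNC13C, which primes vesicles for fusion, was higher with a difference of 0.67 from the nearer clone.

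Receptors and channels were called in both directions. Of 41 neurotransmitter receptors 6 were higher (14.6%, beside 4.85% of all genes) and 5 lower (12.2%, beside 6.36%). Among the lower ones were CHRM3, the nicotinic receptor subunit CHRNA1 (28.9 against 128 and 81.2) and the GABA-B subunit GABBR1. CHRM3 and GABBR1 lie in stretches of chromosomes 1 and 6, described below, where running medians were below both clones. Of 20 calcium and sodium channel genes 4 were higher (20%) and 3 lower (15%). SCN4B, a sodium channel beta subunit, stood at 59.0 ± 1.96 against 17.0 ± 8.39 and 17.3 ± 5.14. Of 33 potassium channels 1 was higher (3.03%), KCNA2, at 1416, 1422 and 1413 against 834 ± 37.6 and 731 ± 24.8. KCNK1 and KCNA1 were lower (6.06%, near the 6.36% of all genes), with differences of −0.39 and −0.14 from the nearer clone. The list leaves out KCNF1 and KCNS3, which were also called lower, at −4.79 and −0.58 from the nearer clone. Both lie in the chromosome 2 stretch described below, and other potassium channel genes off the list were not counted.

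Axon guidance genes were called at 12 of 53, 8 higher (15.1%, beside 4.85% of all genes) and 4 lower (7.55%, near the 6.36% of all genes), with a median difference of 0.03. SEMA6A, a transmembrane semaphorin, stood at 4061, 3911 and 4021 in clone 10 against 1888 ± 16.8 and 2397 ± 95.4. PLXNA4, a plexin that receives semaphorin signals, stood at 82.6, 65.4 and 73.3 against 178 ± 15.7 and 322 ± 13.0. SLIT3, a secreted guidance cue, had 60 reads in clone 10, 0 in clone 3 and 1 in clone 13, which puts clone 10 at least 18.95-fold above clone 3. LGR5, a Wnt-pathway receptor, was higher at 530 ± 32.0 against 206 ± 13.5 in clone 3 and 3.85 ± 1.06 in clone 13. The Wnt list as a whole had 2 higher and 2 lower of 35 (5.71% each, near the shares of all genes).

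Ribosomal protein genes showed the highest share of higher calls among the larger lists. Of 78 cytoplasmic ribosomal protein genes 26 were higher (33.3%, beside 4.85% of all genes) and 3 lower (3.85%, beside 6.36%). The amounts were small, with a median difference of 0.12. RPL41 stood at 11356, 11114 and 10461 in clone 10 against 6295 ± 114 and 8496 ± 180, and RPS26 at 4063 ± 61.6 against 2385 ± 80.6 and 3414 ± 78.8. RPS18 and RPS7 were lower, at 17096 ± 424 against 21474 ± 922 and 23275 ± 338, and at 13058 ± 271 against 16250 ± 213 and 15459 ± 309. They lie in the stretches of chromosomes 6 and 2 described below. Many ribosomal protein genes have processed copies in the genome, and reads shared with copies were not resolved in the deposited table.

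Factors that build ribosomes went the other way. Of 47 nucleolar biogenesis genes 11 were lower (23.4%, beside 6.36% of all genes) and 3 higher (6.38%, beside 4.85%), with a median of −0.07. WDR43, a processome subunit, stood at 1581, 1546 and 1478 in clone 10 against 2450 ± 74.7 and 2362 ± 46.9. It lies in the chromosome 2 stretch and HEATR1, another of the 11, in that of chromosome 1. RRP1B and NOP58 were lower, at −0.29 and −0.27 from the nearer clone, and LTV1, an assembly factor of the small subunit, was higher, at 0.47. Of 76 nuclear genes of oxidative phosphorylation 10 were higher (13.2%) and 0 lower, with a median of 0.08, such as the ATP synthase subunit gene ATP5B at 17128 ± 546 against 11983 ± 129 and 14763 ± 572. RPL41, RPS26, ATP5B and NDUFA12 lie on chromosome 12, over which the median gene of clone 10 exceeded clone 3 by 0.41 and differed from clone 13 by −0.05.

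Sterol and fatty acid synthesis genes were lower at 8 of 34 (23.5%, beside 6.36% of all genes) and higher at 2 (5.88%, beside 4.85%), with a median of −0.14. FASN, the fatty acid synthase, stood at 8192, 8347 and 8206 in clone 10 against 11519 ± 477 and 11256 ± 685 (adjusted p = 2.9e-07). MVD and FDFT1, enzymes of the sterol pathway, were lower, at −0.42 and −0.27 from the nearer clone, and SREBF1, which encodes a regulator of the pathway, was higher, at 0.26. Of 40 glycolysis and hypoxia genes 6 were higher (15%) and 2 lower (5%). SLC2A1, the glucose transporter GLUT1, stood at 1342, 1417 and 1453 against 830 ± 33.1 and 835 ± 14.6, while VEGFA, an angiogenic factor, was lower at 203 against 306 and 286 and lies in a chromosome 6 stretch.

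Replication and mitosis genes stood near the background. Of 58 G1/S and replication genes 2 were higher (3.45%, beside 4.85% of all genes) and 4 lower (6.9%, beside 6.36%). Of 56 G2 and mitosis genes 5 were higher (8.93%) and 3 lower (5.36%), and both lists had medians of 0.03. MYC, which is amplified in some small-cell lines, stood at 2362, 2455 and 2469 in clone 10. It stood at 2448 ± 75.2 in clone 13 and at 856 ± 22.6 in clone 3. None of the 12 tested MYC family genes was called, beside 11.2% of all genes. Of 25 histone genes 3 were higher (12%) and 0 lower, and the median difference was 0.56. HIST1H1C, a linker histone gene, stood at 1130, 1002 and 1092 against 570 ± 23.5 and 304 ± 21.5. Histone copies resemble each other and most of their transcripts lack a poly(A) tail, so these values are uncertain. HEXIM1 and BCL2, read-outs of BET inhibition, were not called with DMSO.

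Genes of antigen presentation and interferon response were called in the lower direction only. Of 12 MHC class I genes 3 were lower (25%, beside 6.36% of all genes) and 0 higher, among them B2M, the light chain of class I molecules, at 2198 ± 78.0 against 2740 ± 117 and 2494 ± 103. Of 30 interferon-stimulated genes 3 were lower, PARP9, TMEM140 and EIF2AK2 (10%, near the share of all genes), and 0 higher. EIF2AK2 lies in the stretch of chromosome 2 described below. The median differences were −0.04 and −0.14. Of the schlafen list no gene passed the filter.

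**Figure D3:**
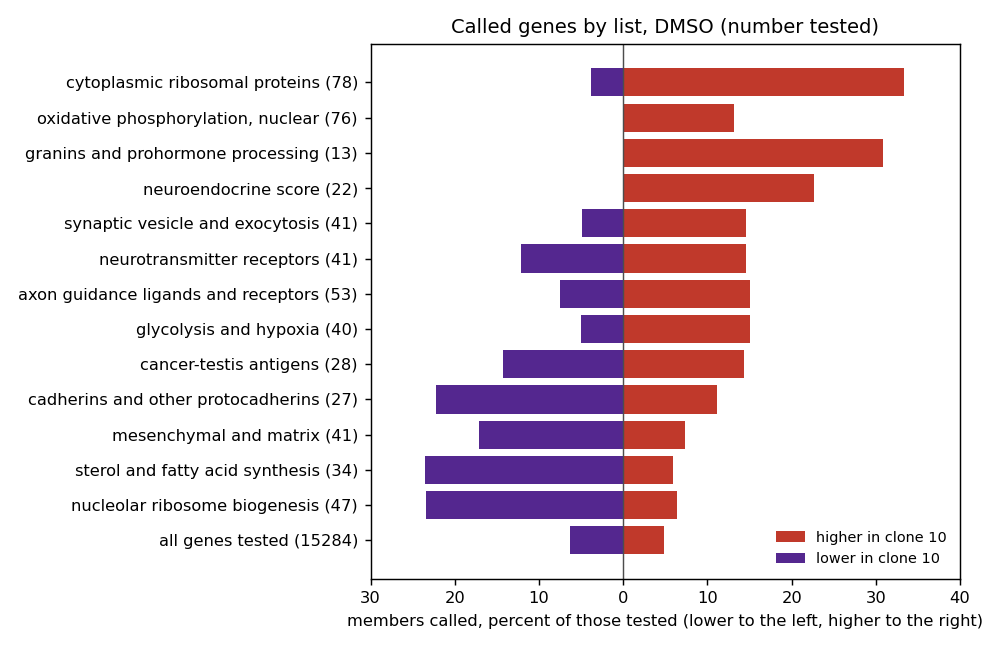
Percent of tested members called higher (right) and lower (left) in clone 10 with DMSO for 13 lists and for all genes tested, with the number tested in brackets. Ribosomal protein genes reach 33.3% higher and nucleolar biogenesis genes 23.4% lower, beside 4.85% and 6.36% of all genes.

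Lower calls were spread unevenly over the chromosomes, from 2.27% of tested genes on chromosome 14 to 23.1% on chromosome 6. Gene order was taken from GENCODE 29 by gene ID, and a running median over 41 neighbouring tested genes was computed against each clone. Where both medians were at least 0.2 to the same side over at least 15 genes, a stretch was recorded, a rule chosen after the pattern was seen. There were 7 stretches, all lower in clone 10, with 521 tested genes. The rule used the same differences as the calls, so a high share of lower calls inside is built in and is given as a description. Inside them 273 genes (52.4%) were called lower and 2 higher, while outside 699 of 14763 (4.73%) were lower and 739 higher. The stretches held 28.1% of all lower calls but only 10 of the 109 genes at least 2-fold lower. Without them the counts were 1438 genes called and 171 at least 2-fold.

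The largest stretch was the end of the short arm of chromosome 2, from PXDN to STON1 (GRCh38 chr2:1631887-48598513). Of its 210 tested genes 138 were lower (65.7%) and 1 higher, and 183 stood below both clones. The median difference was −0.55 against clone 3 and −0.57 against clone 13, or 0.683 and 0.672 times the level of those clones. RRM2, a subunit of ribonucleotide reductase, stood at 3181 ± 35.5 against 4820 ± 152 and 4499 ± 151. ADAM17, a protease that sheds surface proteins, stood at 979 ± 35.7 against 1503 ± 37.5 and 1596 ± 89.2, and DNMT3A, a de novo DNA methyltransferase, at 246 ± 8.53 against 330 ± 16.1 and 348 ± 39.4. Past STON1 the running medians returned to near 0 against both clones.

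Set against the knockout clones, the median over the chromosome 2 stretch was −0.07 for clone 12, −0.58 for clone 15 and −0.47 for clone 2-1. Clone 12 was thus near clone 10 there, and the other 4 clones were higher. The end of chromosome 1, from EDARADD to PGBD2 (chr1:236348257-248919946 in GRCh38), held 45 tested genes, 24 of them lower, with medians of −0.41 and −0.69. CHRM3 lies in it. Against knockout clones 12, 15 and 2-1 the medians of the chromosome 1 stretch were −0.48, −0.47 and −0.16. A short stretch of 18 genes on chromosome 8 had 10 lower, with medians of −0.48 and −0.52. Against the knockout clones its medians were −0.76 to −0.81. DNA copy number was not measured, and a lower gene dose and lower transcription per copy cannot be told apart.

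Chromosome 6 held 4 stretches with 61, 129, 43 and 15 tested genes, of which 24, 53, 19 and 5 were lower. Their medians were −0.24 to −0.28 against clone 3 and −0.30 to −0.48 against clone 13. Between and around them clone 10 also stood below clone 13, so that over the 728 tested genes of the chromosome the median was −0.08 against clone 3 and −0.42 against clone 13. Chromosome 6 had 168 lower calls (23.1%) and chromosome 2 had 178 (17.7%), against 18% on chromosome 21 and at most 8.97% on any other. Of the 93 list members called lower over all lists 18 lay in the stretches. Over the 4 stretches of chromosome 6 the medians against knockout clone 15 were −0.08, −0.04, −0.04 and 0.37. They were −0.38 to −0.86 against knockout clone 12 and −0.17 to −0.41 against knockout clone 2-1. Knockout clone 15 was thus near or below clone 10 there, and the other knockout clones were higher.

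**Figure D4:**
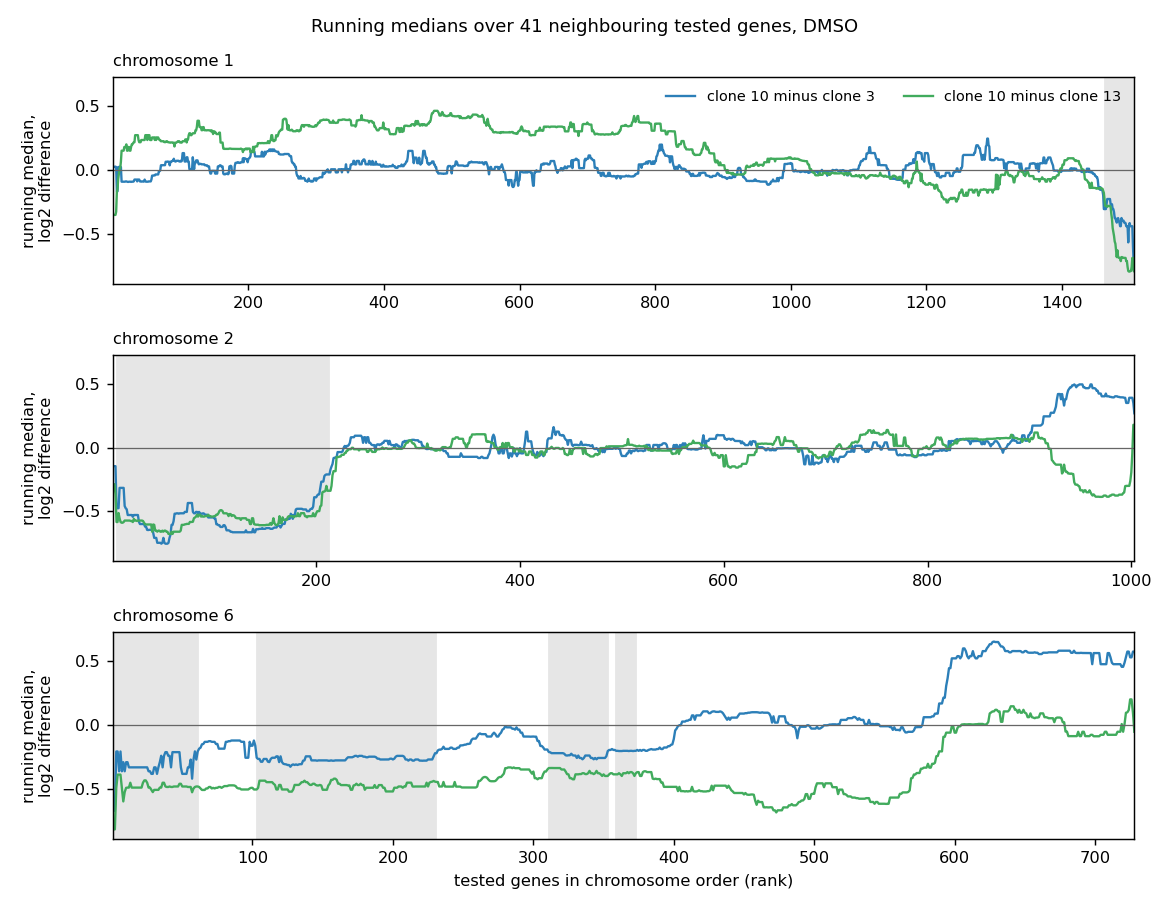
Running medians over 41 neighbouring tested genes of clone 10 minus clone 3 (blue) and clone 10 minus clone 13 (green), log2, along chromosomes 1, 2 and 6 in gene order, with the recorded stretches shaded. On chromosome 2 both lines lie near −0.5 over the first 210 genes or so and return to 0 together, while on the long arm of chromosome 6 the lines part.

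One run of neighbours went the other way. On the long arm of chromosome 6, 6 adjacent tested genes were all called higher: PEX3, FUCA2, PHACTR2, LTV1, PLAGL1 and SF3B5 (GRCh38 chr6:143450807-144095573), the longest such run of higher calls. PLAGL1, an imprinted zinc finger gene, stood at 3473, 3339 and 3453 in clone 10, 1213, 1207 and 1343 in clone 3 and 548, 507 and 454 in clone 13. PHACTR2, which encodes a regulator of actin and protein phosphatase 1, stood at 1878, 1842 and 1876 against 764 ± 13.9 and 471 ± 8.56. The other 4 were closer, with differences from the nearer clone of 0.36 (PEX3), 0.55 (FUCA2), 0.47 (LTV1) and 0.22 (SF3B5). Running medians at these 6 genes were 0.57 to 0.58 against clone 3 and 0.10 to 0.12 against clone 13. The wider neighbourhood thus also stood above clone 3. Against clone 3, LTV1 (0.47) was below that regional level, and FUCA2 (0.68) and PEX3 (0.77) were little above it. SF3B5 (0.90), PHACTR2 (1.29) and PLAGL1 (1.45) were further above it. SF3B5 passed at an adjusted p of 0.04999 and lost the call in 19 of 29 alternatives. With JQ1, 5 of the 6 were called higher again. PEX3, FUCA2, PHACTR2 and SF3B5 were named after their values were seen.

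The JQ1 libraries repeat the comparison in other libraries of the same clones. With JQ1, clone 10 lay outside both clones at 904 of 14924 genes (6.06%), 324 higher (2.17%) and 580 lower (3.89%). At least 2-fold away were 94 genes (0.63%). In both treatments 650 genes were called in the same direction, 230 higher and 420 lower, and 1 was called in opposite directions. These were 37.9% of the DMSO calls and 71.9% of the JQ1 calls. Of the 181 genes at least 2-fold away with DMSO, 137 were expressed enough to be tested with JQ1, 131 kept the sign of the difference from the nearer clone, and 74 were called again, 26 higher and 48 lower. The JQ1 count moved with single libraries: it was 563, 584 or 553 without replicate 1, 2 or 3 of clone 10 with JQ1, and 1041 without replicate 1 of clone 13 with JQ1.

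SSX1, SSX2, SSX2B, SSX4B, MAGEB2, INPP4B and PREX2 were called higher again with JQ1, and SSX4 did not pass the filter there. The same 5 SSX genes, without SSX6, summed to 1567, 1516 and 1518 in clone 10, 160, 172 and 185 in clone 3, and 9.89, 8.83 and 8.32 in clone 13. INPP4B stood at a mean of 960 against 10.6 and 15.0, and SPATS2L at 2.08 against 435 and 143. PABPC5 stood at 0.320 against 267 and 74.1. Some genes could not be compared because JQ1 left little of them in any control clone, such as SLC15A3, with means of 8.66, 5.30 and 4.13, and EFHC2, with 3.51, 1.72 and 0. NEUROD1 was no longer outside both clones: it stood at 6340 in clone 10, 8553 in clone 3 and 6382 in clone 13.

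The chromosome stretches also had medians below 0 with JQ1. The chromosome 2 stretch had medians of −0.55 and −0.59, and the chromosome 1 stretch −0.50 and −0.70. Of 268 genes called lower inside the 7 stretches with DMSO and tested with JQ1, 187 were called lower again.

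**Figure D5:**
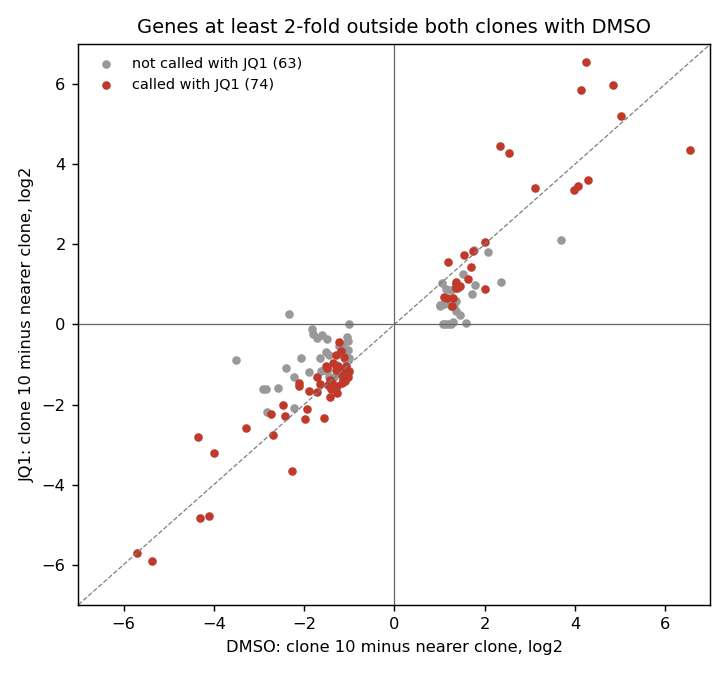
Difference of clone 10 from the nearer clone (log2) with DMSO on the x axis and with JQ1 on the y axis for the 137 genes that were at least 2-fold away with DMSO and tested in both; a value of 0 means that clone 10 lay between the other clones. The 74 genes called again are red, and 131 points have 1 sign in both treatments. Many lie off the dashed line of equality, such as NCAN (−4.36 and −2.81). SSX2 also lies off it (4.25 and 6.54), but its reads cannot be assigned firmly apart from those of SSX2B. Summed, the SSX2 pair stood at means of 1317 in clone 10 and 44.9 in clone 3 with DMSO. With JQ1 the pair stood at 1125 and 37.7.

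At 17 of 15703 genes (0.108%) the difference of clone 10 from both clones itself changed with JQ1, by limma's interaction test, and DESeq2 gave 35. Apart from BRINP1, COL1A2 and PEG10, the genes described were chosen after this test. BRINP1 stood with JQ1 at 1279, 1274 and 1365 in clone 10, against 502, 444 and 458 in clone 3 and 728, 662 and 730 in clone 13. Its difference changed by −0.91 against clone 3 and −1.12 against clone 13 (adjusted p = 2.8e-06). PPAP2B, a lipid phosphate phosphatase, stood at means of 752 with DMSO against 274 and 172, and at 371 with JQ1 against 316 and 187 (adjusted p = 0.00036). ARHGEF28, a RhoA exchange factor, was higher in clone 10 with DMSO, at 2433 against 1800 and 1327, and lower with JQ1, at 700 against 899 and 907.

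COL1A2 diverged further. With JQ1 it stood at 152, 115 and 142 in clone 10, 699, 726 and 639 in clone 3, and 925, 968 and 974 in clone 13, so its difference from the nearer clone went from −1.57 to −2.33 (adjusted p = 0.00078). RBM24, an RNA-binding splicing factor, did likewise, from −0.44 to −1.35. PEG10, an imprinted gene of retrotransposon origin and among the most abundant transcripts in these cells, was lower in clone 10 with DMSO at 25908, 24993 and 25720 against 42925 ± 1126 and 52041 ± 706. With JQ1 it stood at 154637, 164630 and 162322 in clone 10, 176969, 184423 and 182071 in clone 3, and 237602, 255952 and 258603 in clone 13, and the difference narrowed from −0.75 to −0.17 (adjusted p = 0.00037).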

How the data were processed

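RNA was sequenced as stranded poly(A) libraries (RNeasy extraction and a TruSeq Stranded mRNA kit, per the labels' protocols). The submitters' processing notes name cutadapt, STAR, RSEM and hg19, whose versions are not stated there. The authors deposited a table of DESeq2-normalized counts, a signal in which each gene count is divided by 1 size factor per library. Whole reads were recovered by multiplying back (tolerance 1e-06), and 100% of values came out whole in each library. The authors also deposited RSEM FPKM values, used here only as an alternative with an offset of 0.1.

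The differences were fitted in R 4.3.3 with limma 3.58.1 (trend) on log2(normalized count + 1) over the 9 DMSO control libraries, with 1 mean per clone. A gene was tested where 3 or more of the 9 libraries reached 10 normalized counts, true of 15284 of 19014. The larger p of the 2 differences was Benjamini-Hochberg adjusted over all genes tested. The JQ1 libraries of the control clones were fitted alike, and the change of a difference with JQ1 over all 18. edgeR 4.0.16 and DESeq2 1.42.0 on recovered reads, other filters, pseudocounts, scalings and left-out libraries were alternatives. Intervals and floors (3 reads) cover counting error only, since reads without molecular identifiers are not independent molecules. On simulated counts for 15017 genes with 200 changed, 87% of 2-fold and 100% of 4-fold changes were recovered. Of the calls, 1.06% were unchanged genes. The simulation held no genes at which clone 10 differs from only 1 of the other clones. The 1.06% therefore does not measure false calls at such genes, and their share among the calls was not tested.

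Named genes were 8 fixed genes, the 15 highest and 15 lowest by difference from the nearer clone (mean at least 50, symbol on 1 gene), and up to 4 called members per list, some of which are not reported here. The clone, the 46 lists and the rule were chosen with earlier results of these data known. Gene positions came from GENCODE 29 on GRCh38 by gene ID, matched for 14828 of the genes tested (97.0%), since the files' hg19 coordinates were not used here. Upstream sequences came from RefSeq, GRCh38.p14. Replicate numbers showed no consistent pairing of the DMSO libraries across clones, and the JQ1 libraries were not checked for this.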

Additional observations from a re-analysis of the deposited data

Results flagged for a closer look

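The difference between clone 10 and the other control clones itself changed with JQ1 for 11 named genes, by the interaction test of limma with Benjamini-Hochberg adjustment over 15703 genes. The change, JQ1 minus DMSO, is given for the clone where it was smaller, on the log2 scale. BRINP1 changed by −0.91, RBM24 by −0.91, PLAU by −0.85 and COL1A2 by −0.76. PPAP2B changed by −1.14, ARHGEF28 by −0.80, PLEKHA6 by −0.53, H1F0 by −0.40 and ENC1 by −0.32. TMSB4X changed by 0.32 and PEG10 by 0.38.

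ENC1, which encodes an actin-binding kelch protein, stood at means of 19604 in clone 10, 9281 in clone 3 and 11971 in clone 13 with DMSO, and at 6825, 5123 and 5188 with JQ1. H1F0, a linker histone gene, stood at 6825, 3202 and 2316 with DMSO and at 10893, 6734 and 5036 with JQ1. PLAU, the urokinase gene, stood at 508, 1539 and 217 with DMSO and at 721, 6564 and 555 with JQ1, so clone 10 lay between the others in both.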

How the results depend on the processing

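Counts are given in the order clone 10 outside both with DMSO (1713), at least 2-fold (181), with JQ1 (904), in both treatments (650), changed with JQ1 (17), clone 3 outside both (4404) and clone 13 (4241). With the FPKM table the first 4 were 727, 110, 363 and 237, and the last 2 were 2787 and 2664. With the spread taken from all 36 libraries the 7 counts were 615, 112, 587, 345, 2, 2403 and 2313. Requiring a 2-fold difference gave 181 with DMSO, 94 with JQ1, 61 in both, 1 for the change, 710 and 511. Requiring 4-fold gave 66, 66, 31, 24, 0, 281 and 165. With clone means as units limma called 0 genes for each of the 7, and 196 had an unadjusted p under 0.05 for the first. A filter of 50 left 113 genes at least 2-fold. Without a mean trend JQ1 gave 589, both 406 and the change 11. DESeq2 gave 35 genes for the change and the pooled fit of 3 against 6 libraries 3. A threshold of 0.01 gave 487 with JQ1 and 390 in both. For these shifts the cause was not tested, apart from fewer samples or stricter limits.

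Leaving out 1 replicate, in a single clone or in all, gave 1139 to 1666, 117 to 174, 238 to 1113, 205 to 734, 2 to 37, 3472 to 4319 and 3392 to 4128 genes. The change with JQ1 gave 37 and 34 genes without replicate 1 or 2 of clone 13 with JQ1. DMSO libraries with the same number deviated together in no consistent way (correlations −0.19 to 0.09 over 9 pairs), so the replicate block is only an alternative. It gave 1664, 177, 989, 695, 18, 4352 and 4185 genes. Equal library totals gave 1776 genes, 812 of them higher, and TMM factors 1731, with 678 higher. Among named genes called in the main fit, none lay on the opposite side of both clones in any alternative run. Genes not called were not scored for this. Some of them changed sign, such as SYP, whose difference from the nearer clone ranged from −0.12 to 0.11. PABPC5 and other genes near 0 reads are limited by depth, and smaller differences may not have been detectable.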
